A study of Mus musculus with 60 samples.

Results

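The renin-angiotensin system of the mouse kidney was followed through 7 genes: angiotensinogen (Agt), renin (Ren1), angiotensin-converting enzyme (Ace), the type 1a angiotensin receptor (Agtr1a), aminopeptidase A (Enpep), neprilysin (Mme) and the (pro)renin receptor (Atp6ap2). The genes were chosen by name, each was matched to 1 row of the count tables through its GENCODE mouse symbol, and all 7 were among the 15546 genes retained of 55335. The study asked what the circadian clock of the renal tubule does for the kidney, by deleting Bmal1, a core activator of that clock. The 60 libraries came from 60 male mice on a C57BL/6J background, 5 per genotype at each of 6 times of day, ZT0, ZT4, ZT8, ZT12, ZT16 and ZT20, where ZT0 is lights on in a 12-hour light, 12-hour dark cycle.

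The cKOt group carried Bmal1lox/lox, Pax8-rtTA and LC1-Cre, so that doxycycline induced the recombination in cells with an active Pax8 promoter, that is, in tubule cells. The control group were Bmal1lox/lox littermates without the transgenes. Both groups drank doxycycline at 2 mg/ml in 20 mg/ml sucrose for 2 weeks from 8 weeks of age, and tissue was taken 4 weeks after the drug was stopped. The labels call the tissue renal tubule, whereas the methods describe a frozen piece of kidney, and markers of podocytes (summed level of 4 markers, 279.6 to 410.2 CPM in the libraries of the control group) and endothelium (5 markers, 311.7 to 387.2 CPM) were present, so the values are levels in kidney tissue with several cell types. In such bulk tissue, fewer cells of a type and less RNA per cell cannot be told apart. Levels are in CPM, which are counts scaled to a common library total after TMM scaling.

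Angiotensinogen is the protein precursor of all angiotensins. Renin, made by juxtaglomerular cells of the afferent arteriole, cuts it to angiotensin I, and angiotensin-converting enzyme, on endothelium and on the proximal tubule brush border, turns that into angiotensin II, which acts through type 1 receptors to constrict vessels and to increase sodium reabsorption. Within the kidney, proximal tubule cells can make angiotensinogen themselves. Aminopeptidase A removes the first residue of angiotensin II, and neprilysin cleaves angiotensin I to angiotensin-(1-7). The protein of Atp6ap2 binds renin and prorenin and is also an accessory subunit of the vacuolar H+-ATPase, the pump that acidifies lysosomes and urine.

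Since BMAL1 binds DNA with its partner CLOCK at E-boxes, the promoters of the members were searched for the canonical E-box CACGTG and its variant CACGTT, as well as for the TATA sequence TATAAA, the CCAAT box CCAAT and the nuclear receptor half-site AGGTCA, on both strands. The 250 bases before each RefSeq transcription start were used (GRCm38.p6). RefSeq windows were found for 6 of the 7 genes, with 2 for Ace, 3 for Mme and 1 for each of the others. Agtr1a had no entry. The windows of Agt (chr8:124569707-124569956, minus strand), Ren1 (chr1:133350424-133350673, plus strand), the upstream start of Ace (chr11:105967698-105967947, plus strand), Enpep (chr3:129332750-129332999, minus strand) and Atp6ap2 (chrX:12587509-12587758, plus strand) are shown because they hold a TATA sequence or an E-box variant. Each is written 5′ to 3′ on the strand of the gene, and capitals mark any of the searched motifs, in either orientation.
Agt: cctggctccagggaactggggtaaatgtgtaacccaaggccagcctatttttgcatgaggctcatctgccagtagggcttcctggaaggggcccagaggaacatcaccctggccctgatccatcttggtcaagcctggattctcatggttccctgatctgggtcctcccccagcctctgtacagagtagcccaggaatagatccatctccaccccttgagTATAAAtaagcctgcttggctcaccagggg
Ren1: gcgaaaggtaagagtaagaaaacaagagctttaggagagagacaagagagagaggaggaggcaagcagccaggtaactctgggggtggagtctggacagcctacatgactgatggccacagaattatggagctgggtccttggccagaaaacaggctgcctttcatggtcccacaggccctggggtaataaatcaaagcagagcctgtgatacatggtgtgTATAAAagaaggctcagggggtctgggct
Ace: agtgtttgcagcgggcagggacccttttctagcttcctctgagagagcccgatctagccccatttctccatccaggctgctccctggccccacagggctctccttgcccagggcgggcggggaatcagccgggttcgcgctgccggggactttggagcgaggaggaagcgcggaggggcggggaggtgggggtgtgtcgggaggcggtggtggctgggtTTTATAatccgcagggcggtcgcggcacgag
Enpep: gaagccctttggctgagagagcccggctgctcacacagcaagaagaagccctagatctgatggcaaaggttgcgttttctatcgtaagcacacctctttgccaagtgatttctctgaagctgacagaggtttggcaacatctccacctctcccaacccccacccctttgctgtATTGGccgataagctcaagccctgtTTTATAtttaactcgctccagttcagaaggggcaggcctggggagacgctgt
Atp6ap2: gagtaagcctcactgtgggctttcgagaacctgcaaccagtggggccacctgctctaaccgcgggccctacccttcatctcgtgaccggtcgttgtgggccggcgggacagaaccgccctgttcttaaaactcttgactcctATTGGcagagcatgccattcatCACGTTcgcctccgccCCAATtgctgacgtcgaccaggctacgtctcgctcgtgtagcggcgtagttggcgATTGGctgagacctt

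The canonical E-box was in none of the 9 windows of the members, and 6.02% of all 32851 RefSeq windows of this length held it. The variant CACGTT was in the Atp6ap2 window, with its first base 86 bases before the start, and in 3.85% of all windows. TATAAA began 30 bases before the start of Agt and 29 before that of Ren1, on the strand of the gene. In the reverse orientation it lay 31 bases before the upstream start of Ace and 52 before that of Enpep. It was held by 12.4% of all windows. CCAAT, which 33.8% of all windows held, occurred 3 times before Atp6ap2, once before Enpep, in the downstream window of Ace and in 2 of the Mme windows. AGGTCA, in 14.0% of all windows, was in the downstream Ace window, 50 bases before its start. None of these matches overlapped another. The 2 Mme windows with CCAAT overlap each other and share 1 of its matches. A missing match says only that these letters are not in the 250 bases searched.

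Per kilobase of merged exons, Ace was the most abundant member in control kidneys (68.4 ± 7.55 RPKM, mean ± SD, n = 30), followed by Atp6ap2 (52.8 ± 4.95 RPKM), Ren1 (45.5 ± 10.1 RPKM) and Enpep (44.0 ± 4.21 RPKM). Mme (19.8 ± 2.17 RPKM), Agtr1a (18.9 ± 2.12 RPKM) and Agt (14.8 ± 3.20 RPKM) were lower. Of the neighbours in this order, Atp6ap2 and Ren1, Ren1 and Enpep, and Mme and Agtr1a lay within 1 SD of each other. The RPKM of Mme is a count divided by 11542 bases of merged exons, the longest of the 7. In cKOt kidneys Agt (32.6 ± 6.46 RPKM, n = 30) stood above Mme (22.5 ± 3.43 RPKM) and Agtr1a (21.5 ± 1.84 RPKM), and Atp6ap2 (60.9 ± 5.37 RPKM) and Ace (57.8 ± 11.5 RPKM) lay within 1 SD of each other. The lowest count of any member in any library was 319 reads, for Agt.

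**Figure D1:**
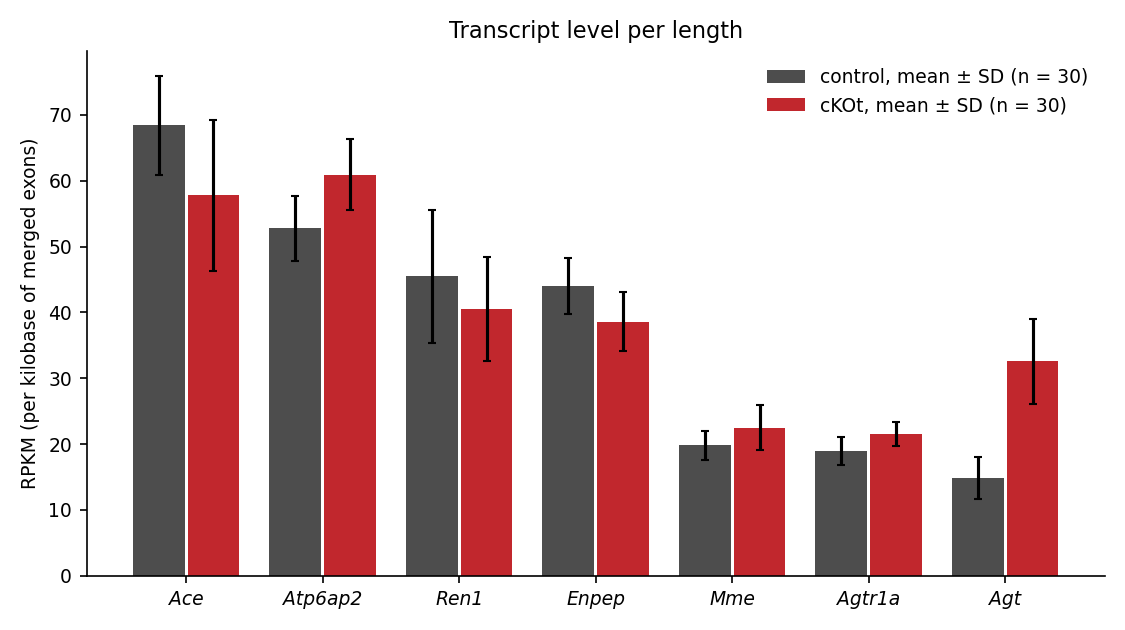
Bars give the mean level per length (RPKM, CPM per kilobase of merged exons) of each member in control (grey) and cKOt (red) kidneys, with SD over 30 mice per genotype. Agt is the lowest member in control kidneys at 14.8 RPKM and reaches 32.6 RPKM in cKOt kidneys.

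The labels were first checked on the targeted gene. In control kidneys Bmal1, listed as Arntl (ENSMUSG00000055116), cycled from 2.73 ± 0.825 CPM at ZT8 (SD, n = 5) to 48.4 ± 10.2 CPM at ZT0. In cKOt kidneys it stayed between a group mean of 17.4 CPM at ZT12 and 24.4 CPM at ZT0. The count covers the whole gene, so a transcript that lacks only the recombined part is still counted, and the level alone does not measure the deletion. The libraries held 17791420 to 20906706 counts on genes.

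When averaged over the 6 time points, 6 of the 7 members differed between genotypes in edgeR's quasi-likelihood test, with p-values adjusted by Benjamini-Hochberg over all genes. Agt, Agtr1a, Mme and Atp6ap2 were higher in cKOt kidneys, Ace and Enpep were lower, and Ren1 did not pass. By the same test 26.8% of all 15546 genes were higher and 23.2% lower, so that about as many genes were called as not, and a call by itself does not set a member apart. The median size of the log2 difference was 0.193 over the 7 members and 0.101 over all genes tested. Agt was the only member to change by more than 2-fold. With a 2-fold limit added, 0.804% of all genes were called higher, and the log2 difference of Agt was larger in size than that of 98.6% of all genes. The other 6 members lay between 64.8% and 79.2% on that scale. The ratio of the genotype means had the same direction in all 6 library batches, of 9 to 12 mice, for each member. Log2 ratios were 0.82 to 1.31 for Agt, 0.13 to 0.30 for Atp6ap2, 0.02 to 0.28 for Agtr1a and 0.02 to 0.35 for Mme. They were -0.40 to -0.07 for Ace and -0.41 to -0.12 for Enpep. The share of all genes that agreed in every batch was not counted, so this agreement does not set the members apart. Time points were not balanced within a batch.

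**Figure D2:**
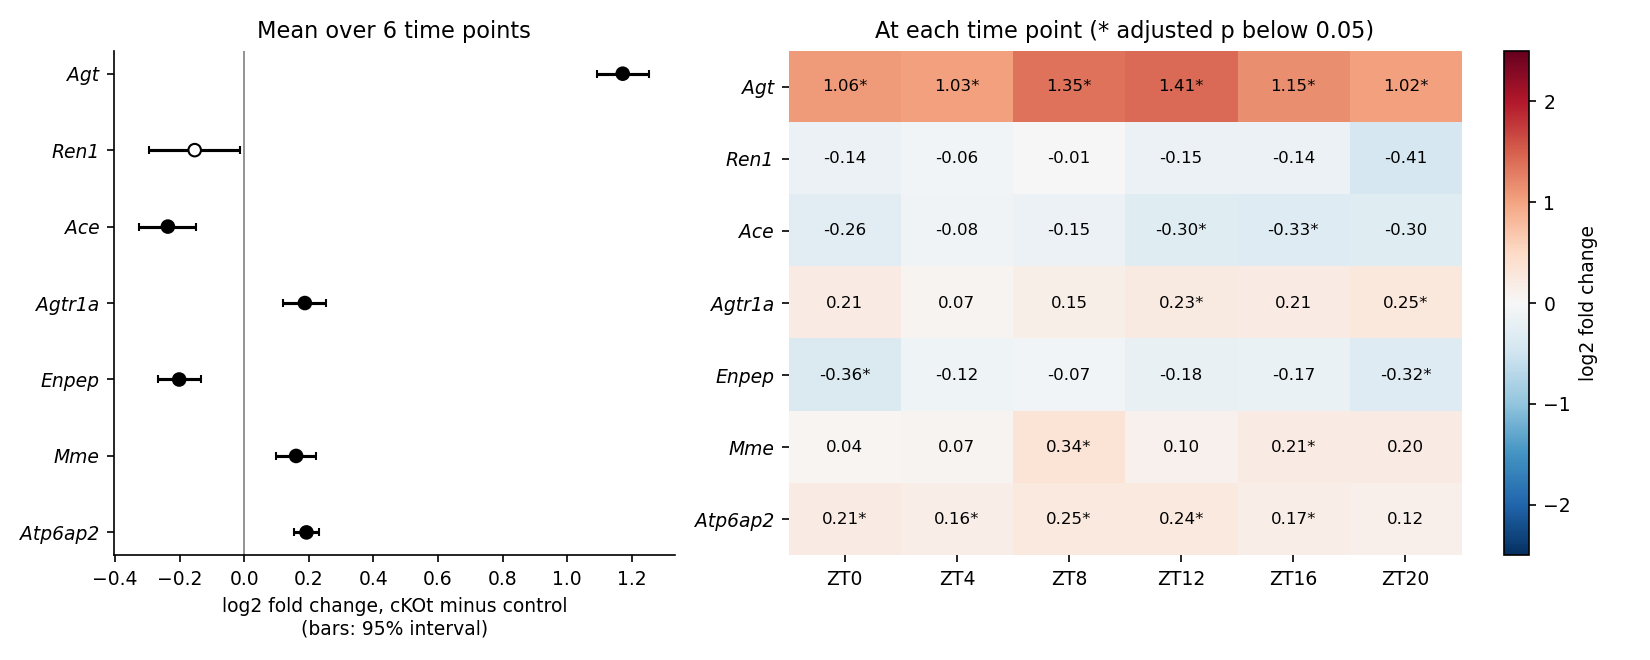
Left, the log2 difference between cKOt and control kidneys in the mean over 6 time points, with 95% intervals, filled where the adjusted p was below 0.05. Right, the same difference at each time point. Agt is near 1 at every time point (1.02 to 1.41), and the next in size at any time point is Ren1 at ZT20 with -0.41.

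Angiotensinogen, the substrate of the system (ENSMUSG00000031980, chromosome 8, 124556534 to 124569706, minus strand, GRCm38), was about 2-fold higher in cKOt kidneys at every time of day. At ZT0 the 5 control mice had 24.7, 26.3, 28.2, 36.3 and 38.0 CPM, and the 5 cKOt mice 60.5, 61.0, 63.7, 65.4 and 70.3 CPM. At ZT4 the values were 26.4, 30.7, 34.2, 35.8 and 37.0 CPM in control and 35.1, 53.4, 61.5, 61.8 and 62.1 CPM in cKOt kidneys. Both time points showed a clear step, but at ZT4 1 cKOt mouse, replicate 5, lay inside the control range.

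At ZT8 control mice had 21.1, 24.8, 25.3, 26.5 and 26.7 CPM and cKOt mice 45.4, 64.8, 69.1, 80.4 and 86.5 CPM. At ZT12 they had 19.4, 21.9, 24.4, 26.0 and 27.6 CPM and 45.4, 47.8, 59.9, 72.0 and 78.0 CPM. At both times the lowest cKOt value was above the highest control value. At ZT16 the values were 24.2, 26.8, 29.2, 30.6 and 41.9 CPM in control and 58.9, 66.0, 71.5, 74.1 and 74.4 CPM in cKOt mice. At ZT20 they were 17.1, 18.3, 24.4, 31.9 and 33.9 CPM and 36.9, 47.4, 53.4, 59.8 and 61.8 CPM. The genotypes therefore did not overlap at 5 of the 6 time points, and 1.27% of all genes had cKOt values above all control values at 5 or more of them.

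The log2 difference of Agt in the mean over time was 1.17 (SE 0.0404, 95% interval 1.09 to 1.25), a fold of 2.25, with an adjusted p of 2.25e-31 by edgeR's quasi-likelihood test. It was called at all 6 time points, with log2 differences from 1.02 (SE 0.100) at ZT20 to 1.41 (SE 0.100) at ZT12. A call in 1 direction at all 6 was made for 4.33% of all genes. The difference did not vary between time points past the threshold (adjusted p = 0.223 in edgeR's quasi-likelihood test). Ordered by level, the 6 control groups came first, from 23.8 ± 3.24 CPM at ZT12 to 32.8 ± 4.32 CPM at ZT4, and the 6 cKOt groups followed, from 51.9 ± 10.1 CPM at ZT20 to 69.3 ± 15.9 CPM at ZT8. The step between the genotypes, 19.1 CPM, was the only one of the 11 steps between neighbours in that order that exceeded the larger SD of the pair.

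Agt is also a gene of liver and fat, and levels of the markers of those tissues are given here. In liver markers, Apoa1 was at 0.402 ± 0.214 CPM in control and 0.552 ± 0.274 CPM in cKOt kidneys (SD, n = 30) and Serpina3k at 0.0678 ± 0.190 and 0.108 ± 0.304 CPM. Alb fell by 2.92 on the log2 scale (adjusted p = 8e-28, edgeR's quasi-likelihood test), Apoa2 rose by 0.37, and Ttr, at 146.8 ± 30.3 CPM in control kidneys, had a log2 difference of 0.04. The summed level of the 5 liver markers ranged from 102.7 to 216.0 CPM in control and from 77.5 to 225.2 CPM in cKOt libraries. None of the 4 adipocyte markers was called, and their sum ranged from 0.162 to 11.1 CPM in control and from 0.154 to 17.7 CPM in cKOt libraries. Markers of the last segment of the proximal tubule did not move together, with Slc7a13 lower by 0.37, Cyp7b1 higher by 0.48 and Atp11a not called on the log2 scale. Their part in the difference was not tested.

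Renin, the enzyme that starts the cascade (Ren1, ENSMUSG00000070645, chromosome 1, 133350510 to 133360325, plus strand), varied widely between mice of the same group and was not called. Over the 30 control mice Ren1 ranged from 40.3 to 108.8 CPM with a median of 70.8 CPM. Over the 30 cKOt mice it ranged from 47.0 to 100.4 CPM with a median of 65.5 CPM. The ranges overlapped at all 6 time points, and at ZT0 the control group alone spanned the values 40.3, 70.3, 79.8, 80.7 and 102.6 CPM.

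The log2 difference of Ren1 in the mean over time was -0.15 (SE 0.0700, 95% interval -0.29 to -0.01), with an adjusted p of 0.0641 by edgeR's quasi-likelihood test. The call depended on the processing. The adjusted p ranged from 0.00899 to 0.524 over 16 alternatives, and the estimate from -0.24 to -0.06. Without replicate 3 of every group it was -0.24 with an adjusted p of 0.00899, and with the library batch as a term in place of the RUVs factors -0.17 with an adjusted p of 0.0260. The mean of cKOt mice was lower than that of control mice in each of the 6 library batches, by -0.04 to -0.34 on the log2 scale, with 3 to 6 mice of each genotype in a batch and time points not balanced in it. At single time points the log2 difference went from -0.01 at ZT8 to -0.41 at ZT20 (adjusted p = 0.112, edgeR's quasi-likelihood test). Ordered by level, the 12 group means of Ren1 ran from 62.2 ± 10.8 CPM (cKOt, ZT16) to 82.6 ± 19.2 CPM (control, ZT4), with no step between neighbours larger than their SD.

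Renin cells are rare, and 4 markers of juxtaglomerular cells were measured beside Ren1. None of Akr1b7, Gja5, Gja4 and Crip1 was called, and their summed level ranged from 12.0 to 21.0 CPM in control and from 12.0 to 18.4 CPM in cKOt libraries. Each was low, at 2.84 to 4.90 CPM in control kidneys, and their log2 differences had SEs of 0.0585 to 0.0756. Of 4 vascular smooth muscle markers, Acta2 fell by 0.15 and Tagln by 0.20, and Myh11 and Cnn1 were not called. The part of these markers in the Ren1 level was not tested. Of 9 genes that act in the control of renin (such as the receptor Adrb1 and the cofactors of CREB), 8 were retained. In cKOt kidneys 2 of these were higher and none lower, beside 26.8% and 23.2% of all genes. By edgeR's quasi-likelihood test the CREB coactivator Crebbp was higher by 0.11 (adjusted p = 0.0151) and the vitamin D receptor Vdr by 0.12 (adjusted p = 0.00345). The Vdr difference varied between time points (adjusted p = 0.0208, same test), as it did for 3.08% of all genes. The median log2 difference of the 8 was -0.01, as against 0.01 over all genes. Of the macula densa markers, prostaglandin E synthase (Ptges) rose by 0.34, and Ptgs2, Nos1 and Pappa2 were not called.

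Angiotensin-converting enzyme (Ace, ENSMUSG00000020681, chromosome 11, 105967945 to 105989964, plus strand) was lower in cKOt kidneys. The 30 control mice ranged from 288.5 to 472.5 CPM with a median of 357.4 CPM. The 30 cKOt mice ranged from 223.5 to 526.8 CPM with a median of 297.7 CPM. The highest and the lowest library of the series were thus both cKOt, replicate 4 at ZT8 and replicate 5 at ZT4.

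The genotypes were apart in Ace only at ZT12, where control mice had 349.9, 353.2, 365.9, 379.2 and 390.6 CPM and cKOt mice 229.2, 268.0, 286.5, 309.2 and 338.4 CPM. How many of all genes were apart at so few time points was not counted, so this does not set Ace apart. At ZT16 control mice had 331.9, 373.1, 391.5, 400.1 and 472.5 CPM and cKOt mice 272.1, 302.4, 306.8, 337.1 and 387.3 CPM, with overlap. At ZT8 the cKOt values 246.3, 274.7, 295.3, 368.6 and 526.8 CPM reached from below to above the control values of 288.5, 339.0, 360.6, 389.2 and 403.3 CPM. The log2 difference in the mean over time was -0.24 (SE 0.0439, 95% interval -0.32 to -0.15), with an adjusted p of 9.61e-06 by edgeR's quasi-likelihood test. It was called at ZT12 (-0.30, SE 0.108) and ZT16 (-0.33, SE 0.107), and each of these calls was lost under 4 of 16 alternative settings. Without the RUVs factors the adjusted p in edgeR's quasi-likelihood test was 0.0602 at ZT12 and 0.162 at ZT16, and with the library batch in their place 0.0563 and 0.195. Without replicate 3 of every group the log2 difference of Ace at ZT12 was -0.19 (adjusted p = 0.295). The group means of Ace ran from 269.9 ± 36.3 CPM (cKOt, ZT20) to 393.8 ± 51.2 CPM (control, ZT16), and no step between neighbours exceeded their SD. All 5 endothelial markers were lower as well, by -0.10 to -0.13 on the log2 scale, and the summed level of these markers ranged from 311.7 to 387.2 CPM in control and from 255.4 to 364.6 CPM in cKOt libraries. This was not particular to endothelium. Of 4 markers each, 3 of fibroblasts, 3 of macrophages and 2 of vascular smooth muscle were lower, and none of these was higher. Of 4 mesangial markers 1 was higher and 1 lower, and no podocyte marker was called. Of 7 proximal tubule markers 3 were higher and 3 lower, beside 26.8% and 23.2% of all genes. The part of these markers in the lower Ace level was not tested. A predicted gene on the opposite strand, Gm11651, shares 295 exonic bases with Ace, and it had at most 11 counts in any library.

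The type 1a receptor (Agtr1a, ENSMUSG00000049115, chromosome 13, 30336441 to 30382867, plus strand) was higher in cKOt kidneys. Control mice ranged from 40.1 to 67.8 CPM (median 52.8 CPM, n = 30), and cKOt mice from 47.0 to 71.0 CPM (median 59.6 CPM, n = 30). At ZT0 the values were 45.2, 49.3, 52.6, 52.7 and 54.7 CPM in control and 55.2, 57.4, 59.1, 60.0 and 62.2 CPM in cKOt mice. At ZT20 they were 45.1, 46.9, 52.6, 53.0 and 54.9 CPM and 57.2, 57.7, 58.5, 61.2 and 67.5 CPM. At these 2 times the genotypes did not overlap, although the lowest cKOt value was close to the highest control value, and at the other 4 they overlapped. The share of all genes with as many separations was not counted, so these do not set Agtr1a apart.

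The log2 difference of Agtr1a in the mean over time was 0.19 (SE 0.0329, 95% interval 0.12 to 0.25), with an adjusted p of 3.25e-06 by edgeR's quasi-likelihood test. It was called at ZT12 (0.23, SE 0.0807) and ZT20 (0.25, SE 0.0815), and each of these calls was lost under 4 of 16 alternative settings. The adjusted p at ZT12 was 0.0687 with no filter and 0.238 without replicate 5 of every group, and that at ZT20 was 0.0524 with the library batch and 0.173 without replicate 4. Agtr1a was also the only member to vary between time points in control mice (adjusted p = 0.0253), where 30.6% of all genes did. The control means were highest at ZT4 (58.8 ± 6.69 CPM) and lowest at ZT16 (48.1 ± 5.03 CPM, SD, n = 5). That call was lost without replicate 1, 4 or 5 of every group, with adjusted p-values of 0.0531, 0.111 and 0.107. In cKOt mice the means ran from 55.5 ± 6.13 CPM at ZT16 to 62.4 ± 6.60 CPM at ZT8, and the variation was not called (adjusted p = 0.558). The difference in variation between the genotypes was not called either (adjusted p = 0.883), so a loss of the daily change was not shown. No step between neighbouring group means exceeded their SD.

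Aminopeptidase A (Enpep, ENSMUSG00000028024, chromosome 3, 129269175 to 129332720, minus strand) was lower in cKOt kidneys, with called differences at ZT20 and at ZT0. At ZT0 control mice had 189.1, 190.2, 208.3, 226.3 and 249.7 CPM, and cKOt mice 152.7, 156.0, 172.1, 175.0 and 176.8 CPM, with no overlap. The share of all genes without overlap at ZT0 was not counted. At ZT20 control mice had 199.0, 202.0, 218.4, 221.9 and 238.0 CPM and cKOt mice 151.6, 153.3, 161.5, 165.2 and 211.5 CPM. Of these cKOt mice only replicate 2 reached the control range. At ZT4, in contrast, the values of 181.2, 185.7, 187.8, 212.8 and 229.6 CPM in control and 174.6, 185.7, 192.7, 195.4 and 232.2 CPM in cKOt mice covered almost the same range.

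The log2 difference of Enpep was -0.20 in the mean over time (SE 0.0327, 95% interval -0.27 to -0.14), with an adjusted p of 7.82e-07 by edgeR's quasi-likelihood test. It was -0.36 (SE 0.0800) at ZT0, -0.32 (SE 0.0809) at ZT20 and -0.07 (SE 0.0800) at ZT8, and passed at ZT0 and ZT20. The variation of the difference between time points had an adjusted p of 0.427, so these differences cannot be called unequal. Ordered by level, the group means rose from 166.5 ± 11.3 CPM (cKOt, ZT0) to 215.8 ± 15.9 CPM (control, ZT20). The 3 lowest groups were cKOt at ZT0, ZT20 and ZT16, and the step from them to the next was the only one larger than the SD of the neighbours.

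Enpep was the only member assigned a rhythm. Each gene was fitted with 5 models, in which neither genotype cycled (model 1), only control (model 2), only cKOt (model 3), both alike (model 4) or both differently (model 5), and was assigned at a weight of at least 0.65 by the Bayesian information criterion. Enpep went to model 3 with a weight of 0.904, as 3.42% of all genes did. Its fitted peak-to-trough size was 0.24 on the log2 scale in cKOt kidneys, with a peak at ZT8.66, and 0.04 in control kidneys. The test without a curve shape did not call time in cKOt mice for Enpep (adjusted p = 0.0873, edgeR's quasi-likelihood test), and the assignment was lost without replicate 1 of every group, at a weight of 0.548. Ren1, Ace and Atp6ap2 were assigned to model 1, with weights of 0.863, 0.669 and 0.775, as were 34.0% of all genes. Agt, Agtr1a and Mme, whose highest weights were 0.579, 0.612 and 0.519, were not assigned, as was the case for 28.7% of all genes. These weights were for model 1 in Agt and for model 4 in Agtr1a and Mme. Of 13 alternative settings, Agtr1a was assigned to a rhythmic model in 5 and Mme in 1. Without replicate 4 of every group Agtr1a went to model 4 (weight 0.906), and without replicate 1 to model 2 (0.836).

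Neprilysin (Mme, ENSMUSG00000027820, chromosome 3, 63241537 to 63386030, plus strand) was higher in cKOt kidneys. Control mice ranged from 179.6 to 283.9 CPM (median 227.1 CPM, n = 30), and cKOt mice from 208.7 to 345.5 CPM (median 252.3 CPM, n = 30). At ZT8 the control values were 216.7, 220.1, 223.7, 236.2 and 237.6 CPM and the cKOt values 210.2, 250.3, 263.9, 330.4 and 336.9 CPM. Here 4 cKOt mice lay above all control mice and 1, replicate 4, lay below them. This was the mouse with the highest Ace level of the series.

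The log2 difference of Mme in the mean over time was 0.16 (SE 0.0308, 95% interval 0.10 to 0.22), with an adjusted p of 1.69e-05 by edgeR's quasi-likelihood test. At single time points it was called at ZT8 (0.34, SE 0.0755, adjusted p = 0.000542) and at ZT16 (0.21, SE 0.0756, adjusted p = 0.0457). The ZT8 call was lost without the RUVs factors (adjusted p = 0.0750), and the ZT16 call under 12 of 16 alternative settings. Mme was the only member called for variation between time points in cKOt mice (adjusted p = 0.0144), where 26.6% of all genes were called. The cKOt means ran from 233.2 ± 15.9 CPM at ZT0 to 282.1 ± 45.4 CPM at ZT12, and the control means from 210.5 ± 18.6 CPM at ZT4 to 251.8 ± 30.1 CPM at ZT12. That call was lost without the RUVs factors (adjusted p = 0.276), with the library batch in their place (0.225) and without replicate 1 (0.124) or replicate 2 (0.108) of every group. No step between neighbouring group means exceeded their SD.

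The (pro)renin receptor (Atp6ap2, ENSMUSG00000031007, chromosome X, 12587801 to 12617049, plus strand) was higher in cKOt kidneys at most times of day, by a small and precise amount. At ZT12 the control mice had 133.4, 134.4, 141.6, 149.9 and 163.9 CPM and the cKOt mice 164.4, 164.4, 175.5, 178.0 and 194.9 CPM. At ZT0 they had 117.2, 127.9, 135.6, 141.0 and 141.7 CPM and 148.5, 149.9, 151.8, 152.4 and 162.0 CPM. The genotypes did not overlap at these 2 times, and the share of all genes with as many separations was not counted. At ZT20 they did, with 129.4, 132.4, 150.2, 167.5 and 169.1 CPM in control and 146.8, 157.8, 158.2, 168.0 and 173.5 CPM in cKOt mice.

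The log2 difference of Atp6ap2 in the mean over time was 0.19 (SE 0.0197, 95% interval 0.15 to 0.23), with an adjusted p of 2.99e-12 by edgeR's quasi-likelihood test. It was called at 5 of the 6 time points, with log2 differences from 0.16 (SE 0.0507) at ZT4 to 0.25 (SE 0.0483) at ZT8, and not at ZT20 (0.12, SE 0.0488, adjusted p = 0.105). The share of all genes called at 5 or more time points was not counted. The calls at ZT8 and ZT12 held under all 16 alternative settings, whereas those at ZT16, ZT4 and ZT0 were lost under 5, 3 and 2 of them. The group means ran from 132.7 ± 10.3 CPM (control, ZT0) to 175.4 ± 12.5 CPM (cKOt, ZT12), with no step between neighbours over their SD. Of 14 other subunit and accessory genes of the vacuolar H+-ATPase, 1 was higher and 6 were lower, beside 26.8% and 23.2% of all genes. Atp6v1f rose by 0.08, whereas Atp6v1d fell by 0.18, Atp6v0a1 by 0.16, Atp6v0c by 0.16 and Atp6v0d1 by 0.14 on the log2 scale. Atp6ap1, the other accessory subunit, had a log2 difference of 0.04 (adjusted p = 0.122, edgeR's quasi-likelihood test). The median over the 14 was -0.03.

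**Figure D3:**
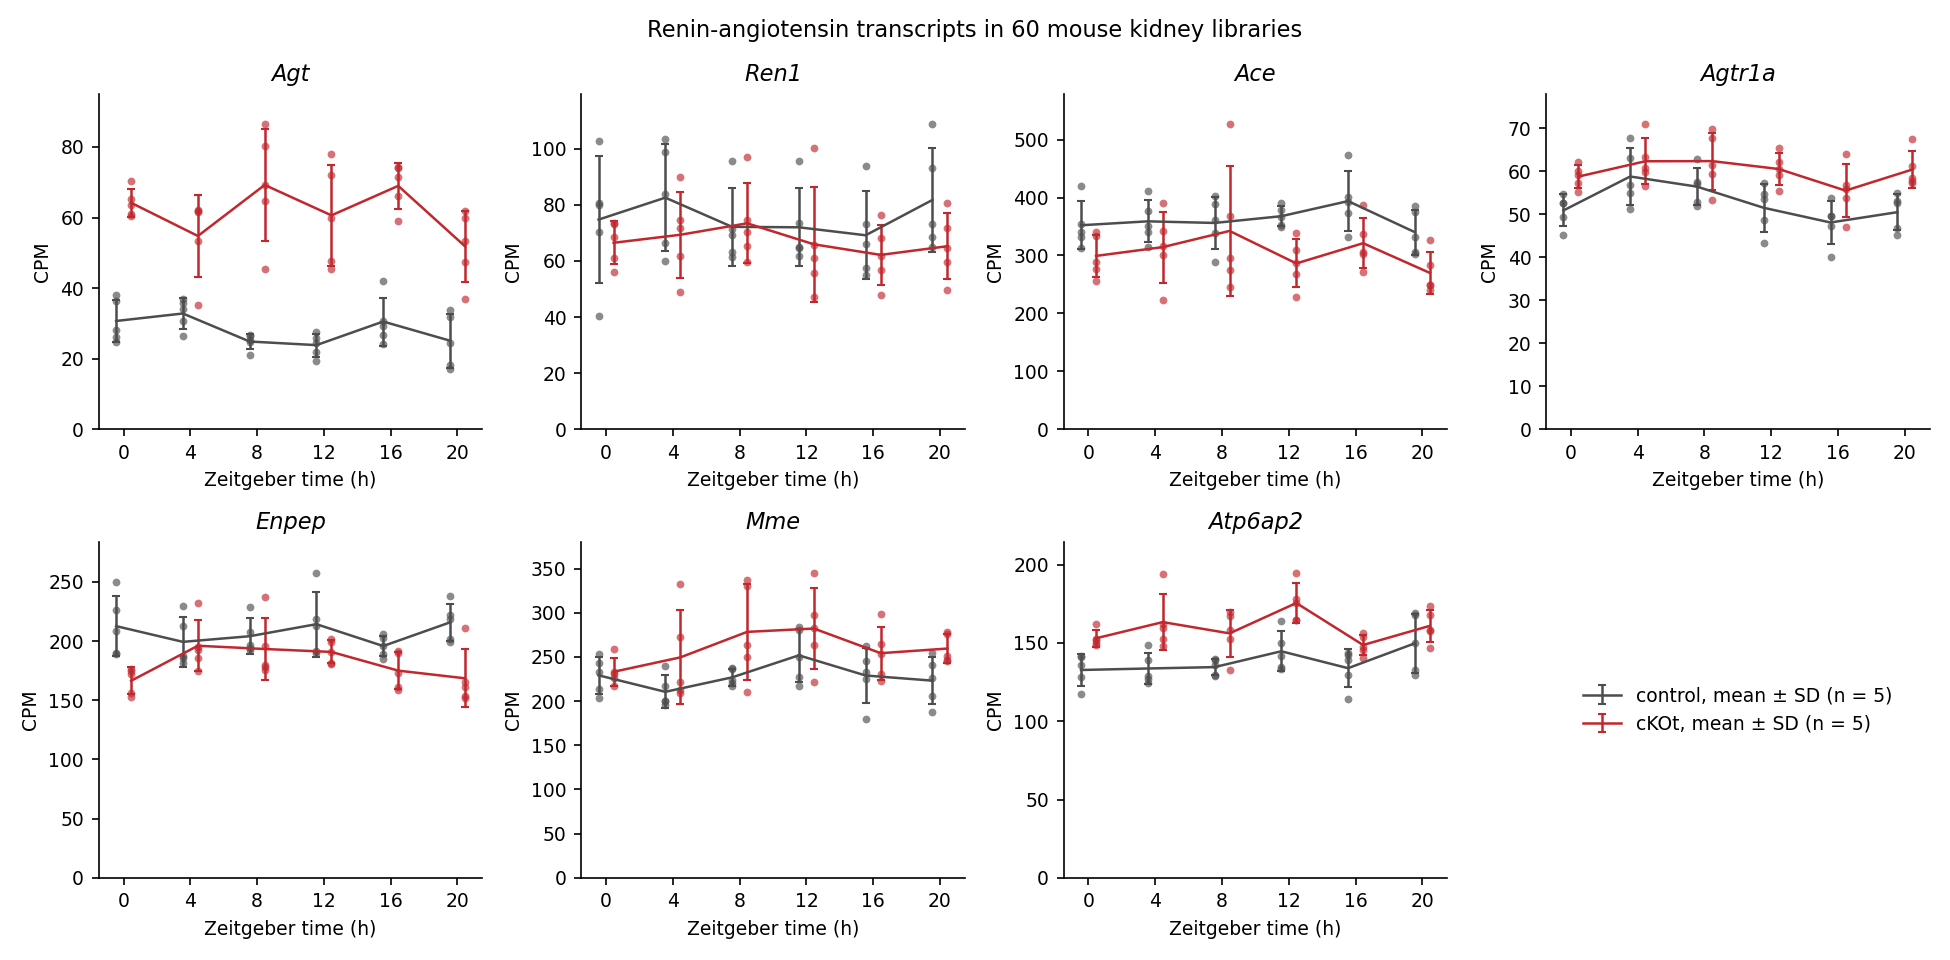
Each panel shows 1 member, with CPM against zeitgeber time in hours. Points are single mice, and lines join the means, with SD, of 5 control (grey) or 5 cKOt (red) mice. Agt separates the genotypes at every time point but ZT4, where 1 cKOt mouse falls to 35.1 CPM. In each other member the genotypes overlap at 4 to 6 of the 6 time points. How many of all genes overlap as often was not counted.

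Counted by time point, 3 of the 7 members were called at ZT0 (12.1% of all genes), 2 at ZT4 (12.5%), 3 at ZT8 (19.9%), 4 at ZT12 (21.0%), 4 at ZT16 (19.8%) and 3 at ZT20 (13.8%), in edgeR's quasi-likelihood test with adjusted p-values. Agt made 6 of these 19 calls and Atp6ap2 made 5, Ace, Agtr1a, Mme and Enpep made 2 each, and Ren1 made none. How many of all genes were called at 2 or at 5 time points was not counted. No member was called for a genotype difference that varied between time points, against 3.08% of all genes, and only Agt had an unadjusted p below 0.05. limma-trend and the fit with a replicate block also called none.

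2 libraries stood apart in several members. In cKOt replicate 5 at ZT4, Agt (35.1 CPM) and Ace (223.5 CPM) were the lowest of all 30 cKOt mice. Mme (333.0 CPM), Enpep (232.2 CPM), Atp6ap2 (194.1 CPM) and Agtr1a (71.0 CPM) were the highest of its group. The summed liver, macrophage and last-segment proximal tubule markers of this mouse were 84.6, 108.3 and 3548.2 CPM, each the lowest of its group, as were those of the proximal tubule (9592.1 CPM), the thick ascending limb (3462.8 CPM) and the distal convoluted tubule (975.9 CPM). Its endothelial (351.9 CPM) and fibroblast (115.5 CPM) sums were the highest of the group. Its share of reads in no gene (10.6%) was the highest of the 60 libraries and its share of ambiguous reads (0.953%) the lowest. Their part in these values was not tested. In a second library, cKOt replicate 4 at ZT8, Agt (86.5 CPM) and Ace (526.8 CPM) were the highest and Atp6ap2 (132.7 CPM) the lowest of all 30 cKOt mice. Its sum of the 7 proximal tubule markers, 14192.3 CPM, was the highest of that genotype. So were its sums of the endothelial (364.6 CPM), mesangial (108.3 CPM) and macrophage (200.1 CPM) markers. Its thick ascending limb sum (3737.4 CPM) lay within the range of its group. The part of these sums in its values was not tested. Without the ZT4 mouse the log2 difference at ZT20 of Ace (-0.31, adjusted p = 0.0431) and of Mme (0.22, adjusted p = 0.0458) passed in edgeR's quasi-likelihood test. Without the ZT8 mouse the log2 difference of Ace at ZT8 moved from -0.15 to -0.28, that at ZT20 passed (adjusted p = 0.0362), and Agtr1a passed at ZT16 (0.21, adjusted p = 0.0473). Neither exclusion ended a call in the mean over time.

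Of 19 other genes of the system, 12 were retained. Of those 12, 2 rose and 5 fell, beside 26.8% and 23.2% of all genes. The median log2 difference of the 12 was -0.03. Agtr1b, Agtr2, Mrgprd, Mmel1, Ctsg, Cma1 and Cpa3, which include the type 1b and type 2 receptors and the mast cell proteases chymase and carboxypeptidase A3, had at most 6 counts in any library.

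Mas1, the receptor of angiotensin-(1-7), fell by 0.50 (SE 0.119, adjusted p = 0.000410, edgeR's quasi-likelihood test) from a low level. Agtrap, whose protein promotes internalization of the type 1 receptor, rose by 0.12 (SE 0.0209). Of the aminopeptidases, Anpep, which trims angiotensin III, fell by 0.23 (SE 0.0502), Rnpep fell by 0.06 (SE 0.0201) and Lnpep, the angiotensin IV receptor, had a log2 difference of 0.08 (adjusted p = 0.202). Tissue kallikrein (Klk1) fell by 0.14 (SE 0.0396). Prolyl endopeptidase (Prep) fell by 0.07 and Dpp3 rose by 0.05. Thop1, Nln, Prcp and Ctsa had log2 differences of 0.07, -0.04, 0.02 and -0.03 and were not called. Prcp varied between time points in control mice (adjusted p = 9.83e-08).

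**Figure D4:**
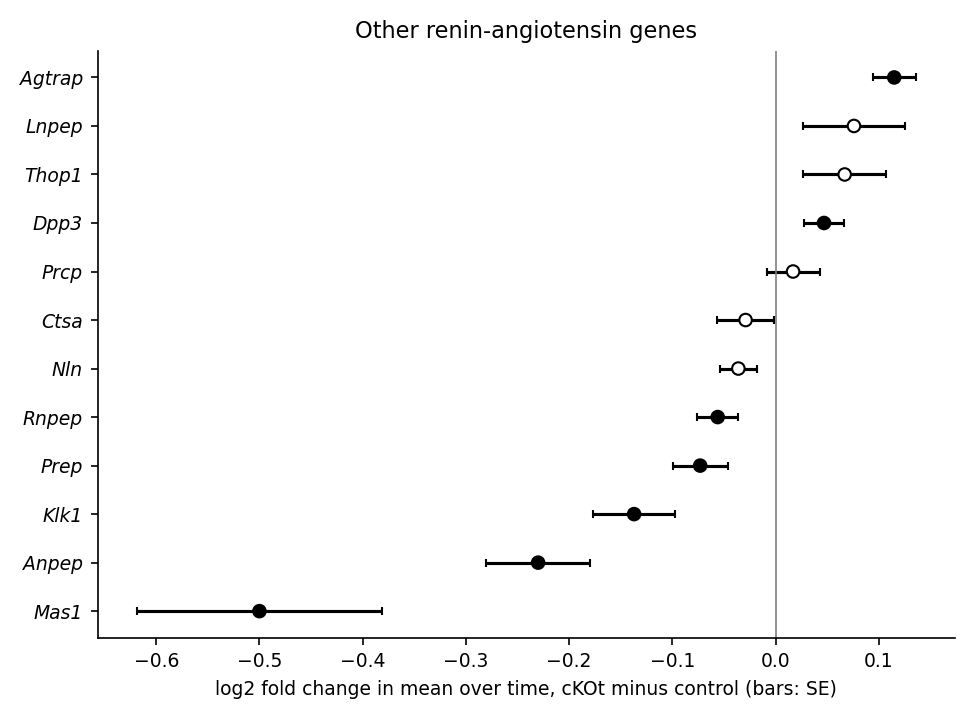
Log2 difference in the mean over time between cKOt and control kidneys, with SE, for 12 retained genes of the system other than the members, filled where the adjusted p was below 0.05. Mas1 lies at -0.50, and the other 11 lie between -0.23 and 0.12.

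Other vasoactive peptides, their receptors and the endothelin-converting enzyme were counted in the same way. Of 11 genes, 10 were retained, and 3 of these rose and 1 fell, beside 26.8% and 23.2% of all genes. The median log2 difference of the 10 was 0.06. Kininogen 2 (Kng2), a precursor of bradykinin, rose by 0.21 (SE 0.0261) from 269.3 ± 21.9 CPM, and Kng1 rose by 1.36 (SE 0.145) from a level of 0.387 ± 0.171 CPM. Ece1, the endothelin-converting enzyme, rose by 0.23 (SE 0.0264). The natriuretic peptide receptor Npr2 fell by 0.29 (SE 0.0300), whereas Npr1 and Npr3 had log2 differences of -0.01 and 0.06 and were not called.

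The genes whose level was most like that of each member were sought over the 60 libraries, by Pearson correlation of log2 CPM among 12737 other protein-coding genes. The libraries share the genotype contrast and the scaling, so the values describe these samples only and carry no test. Agt was most like the thyroid hormone receptor gene Thra (r = 0.932, with 0.608 over 30 control and 0.730 over 30 cKOt mice). Next came Cyp2d26 (0.926, with 0.706 and 0.756) and Slc23a3 (0.915, with 0.626 and 0.403). For Ace the closest were Coasy (0.855), Galns (0.829) and Dhrs1 (0.810), and r for Galns was similar within control (0.822) and cKOt (0.868) mice. Mme was most like Sh3bgrl (0.826), Etnk1 (0.807) and Bag4 (0.774).

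Atp6ap2 was most like the lysosomal membrane gene Lamp2 (0.875) and the ribosomal protein genes Rps4x (0.873) and Rpl7 (0.868). For Enpep the closest were Nudt12 (0.729), Kcnj16 (0.706) and Ugt3a2 (0.706), and for Agtr1a Sec16b (0.713), Atp12a (0.704) and Pde7b (0.697). The r of Atp12a was 0.657 within control and 0.274 within cKOt mice, against 0.619 and 0.601 for Sec16b. Ren1 had the lowest values, with Dap (0.565), Lgmn (0.540) and Gstm1 (0.526).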

How the data were processed

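Kidney RNA of 60 mice was measured by stranded poly(A) RNA-seq. The authors deposited HTSeq gene counts, 1 table per library, made with cutadapt 1.8, STAR 2.5.3a and HTSeq 0.9.1 on GRCm38. The HTSeq strand setting is not given in the sources used here. Per the methods, 5 of 6 mice per group had been kept by RNA quality and distance from their group, so outliers were thinned before deposit, and 1 deposited library, cKOt ZT16 replicate 4, was marked for removal. Rows for reads in no gene (7.17 to 10.6% of a library) and ambiguous reads (0.953 to 1.27%) were left out. Symbols and coordinates came from GENCODE M21, which named 55154 of 55335 identifiers.

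From the counts, genes reaching 1 CPM in 1 or more libraries were retained (15546), scaled by TMM, and fitted with 12 group means and 2 RUVs factors of unwanted variation, estimated from all genes (a re-implementation, as in the study). edgeR 4.0.16 (R 4.3.3) tested, with its quasi-likelihood test, the genotype difference in the mean over time, its variation between time points, variation between time points in each genotype and the genotype difference at each time point, with Benjamini-Hochberg adjustment over all genes and a threshold of 0.05. Intervals use a t distribution with 46 degrees of freedom. CPM values printed carry no RUVs correction. Rhythm models with a 24 h period were fitted to log2 CPM (prior count 2) after RUVs correction. The tests were run on simulated counts with known genotype differences but no change over the day, batch or unwanted factor. The RUVs step and the tests of time were thus not checked under conditions like those here. The deposited libraries of a group were separate mice, and none were duplicates.

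Alternatives were DESeq2 size factors, no filter, filterByExpr, no RUVs factors, library batch in their place, a replicate block, DESeq2 1.42.0, limma-trend 3.58.1, each replicate left out, exclusion of the library marked for removal and, for rhythm, 1 RUVs factor and BIC weights of 0.5 and 0.8. 2 further exclusions, of cKOt ZT4 replicate 5 and cKOt ZT8 replicate 4, were chosen after seeing the data. The other renin-angiotensin genes were counted without 1 gene, which is not reported here. The members, the other lists and the markers were chosen with earlier results of these data known. Genes named are the members, Bmal1, genes of the lists, and the 3 protein-coding genes with a mean of at least 1 CPM most correlated with each member. Gm11651, which overlaps Ace, and the genes of the lists that were not retained were named after their values were seen. Replicate numbers in the labels number the mice of a group, and the labels do not say whether a number marks a shared litter or day.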

Additional observations from a re-analysis of the deposited data

Results flagged for a closer look

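Each member was examined in each of the 12 groups of 5 mice, 84 groups in all, for a mouse whose gap to its nearest neighbour took more than 0.71 of the group's whole range. 1 was found, and chance alone flags about 1 in 20 groups. Enpep in cKOt replicate 2 at ZT20 was 211.5 CPM, whereas the other 4 mice of that group lay between 151.6 and 165.2 CPM, a gap of 0.773 of the range. No member showed a genotype difference that varied between time points past the threshold.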

How the results depend on the processing

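All 6 calls in the mean over time kept their direction and passed under all 16 alternatives, with log2 differences of 1.14 to 1.19 for Agt, 0.18 to 0.21 for Atp6ap2, 0.16 to 0.22 for Agtr1a, 0.14 to 0.19 for Mme, -0.30 to -0.19 for Ace and -0.24 to -0.17 for Enpep. Ren1 passed with the library batch in place of the RUVs factors (-0.172) and without replicate 2 (-0.193) or replicate 3 (-0.236), and not otherwise, with -0.236 to -0.061 over the exclusions. Calls at single time points held less well: the 19 calls went from 14 to 21 over the exclusions. Without the RUVs factors the calls of Ace at ZT12 and ZT16, Mme at ZT8 and ZT16 and Atp6ap2 at ZT0 and ZT16 were lost, and none was gained. The difference of Ren1 at ZT8 reversed without RUVs factors (0.024), with the library batch (0.090) and without cKOt_ZT8 replicate 4 (0.020). Reversals over the replicates left out gave ranges of -0.143 to 0.075 for Ren1 at ZT8, -0.203 to 0.154 at ZT4 and -0.295 to 0.091 at ZT12, -0.022 to 0.066 for Mme at ZT0, -0.168 to 0.007 for Enpep at ZT4 and -0.150 to 0.005 for Ace at ZT4. None of these passed before or after, and the cause was not tested. The call for time in control mice, Agtr1a, was lost with no filter (0 members), and the exclusions gave 0 to 2. The call for time in cKOt mice, Mme, was lost without RUVs factors (0) and with the library batch (0), and the exclusions gave 0 to 1.

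Over all genes, calls for a difference varying between time points went from 479 to 263 without RUVs factors, 312 with the library batch and 233 to 501 over the exclusions. At ZT0 they went from 1884 to 983 and 1130 under those 2 settings, at ZT8 from 3095 to 2013 and 1991, at ZT16 from 3071 to 1853 and 1829, and at ZT20 from 2140 to 1407 and 1419. At ZT4 the library batch gave 3091 against 1950. Calls for time in cKOt mice were 4142, and 2608 to 4333 over the exclusions, which hold fewer mice. Fitted with a replicate block, the mean over time had 7734 calls against 7778, Ren1 stayed uncalled (adjusted p = 0.0630, edgeR's quasi-likelihood test), and the Mme call at ZT16 was lost (adjusted p = 0.0523). It changed no other call of a member. Deviations of same-numbered mice correlated by 0.00433 on average, against -0.00103 for other pairs. Mice of the same library batch correlated by only 0.0361. Such averages over all genes cannot show whether a number marks a shared litter or day. For rhythm, the assignment of a member moved in 17 of 91 refits. Bulk depth did not limit the members, each with at least 319 reads in every library. RNA levels do not give enzyme activity or peptide levels.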
